A study of Homo sapiens with 24 samples.

Results

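SK-N-FI is a human neuroblastoma cell line that the labels give as MYCN wildtype, that is without amplification of that oncogene, and as sensitive to GSK-J4. It was grown untreated or with 1 µM GSK-J4 for 72 h, and polyadenylated RNA was sequenced from 3 libraries of each group. All 32760 genes of the comparison table assigned to SK-N-FI are described here, of 39772 genes in the 4 tables of the series together, and 6 of its 24 libraries lie behind them. The other lines, each with 3 untreated libraries and 3 at the same dose and time, are LAN5 and IMR5 (MYCN-amplified, sensitive) and SK-N-BE(2) (MYCN-amplified, resistant). LAN5 and IMR5 serve below to show where SK-N-FI differs. SK-N-FI is 1 established line grown in culture, and nothing in the labels says that its libraries came from separate cultures, so every p-value speaks only to the spread among the libraries made, and that spread may be technical.

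GSK-J4 is a cell-permeable ester that cells convert to an inhibitor of KDM6A and KDM6B, the demethylases of histone H3 at lysine 27. Both belong to the large family of iron- and 2-oxoglutarate-dependent dioxygenases. The family also holds the prolyl hydroxylases that mark hypoxia-inducible factors for destruction when oxygen is present, the TET enzymes that oxidise methylated DNA, and the hydroxylases that modify collagen. In low oxygen the hypoxia-inducible factors accumulate and switch on genes of glucose uptake, glycolysis, pH control, blood vessel growth and mitophagy. Gene lists for these processes, for stress pathways, for the cell cycle and for neuroblastoma cell identity were counted in the table.

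The table holds, for each gene, a mean normalized count over the line's libraries, a log2 fold change with its standard error and an adjusted p-value, all from the authors' DESeq2 fit, and no value of a single library. The depth of each library is therefore unknown. The table does not name the line or the direction. It was assigned to SK-N-FI by the likeness of its short name and by elimination, and MYCN had a mean normalized count of 116 in it, against 24408 (LAN5), 11397 (IMR5) and 38908 (SK-N-BE(2)) in the authors' deposited tables of the amplified lines. Induction of BBC3 by the compound is known from the study, and for this reason a positive fold change was taken to mean higher with GSK-J4; the sign of BBC3 belongs to that reading and is not a result. A value written with ± is a log2 fold change with its standard error. Deposited fold changes are shrunken toward 0. Where lines are compared, the shrinkage was undone, and such values are called prior-removed. Group means for named genes were computed from the authors' deposited mean and the prior-removed fold change, for 3 libraries in each group, and carry no error of their own. Untreated and treated means of a gene are always such computed values, also where its sentence cites the authors' deposited table.

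At an adjusted p under 0.05, 7136 of 22576 genes tested (31.6%) were called in SK-N-FI, 3784 higher (16.8%) and 3352 lower (14.8%). The median deposited log2 fold change of all genes tested was 0.0103. Every count of a gene list below can be read against these shares. Among protein-coding genes 21.6% were higher and 19.1% lower, and among long non-coding genes 7.27% and 7.15%. Where the mean normalized count reached 100 or more, calls were more frequent: 49.1% of 10909 genes, 25% higher and 24.1% lower. In bulk RNA, fewer cells of a kind and less RNA per cell cannot be told apart for any gene.

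The largest rise belonged to MT2A, a metallothionein gene, and the 15 largest rises (at a mean of 100 or more) took in 5 metallothioneins, the glycolytic regulator PFKFB3, the collagen lysyl hydroxylase PLOD2, BHLHE40 and BHLHE41, repressors of the clock. Others of the 15 were NIBAN1, a stress-induced gene, at 3.82 ± 0.232, PPFIA4, a liprin, at 3.78 ± 0.218, and GPNMB, a membrane glycoprotein of lysosomes and melanosomes, at 3.55 ± 0.143 in the authors' deposited table. STC2, a secreted stress hormone, the lactate exporter SLC16A3 and the antigen-presenting HLA-B completed them. Among the 15 largest falls 6 came from mitochondrially encoded mRNAs or a nuclear copy of one (MTCO1P12). The others included GRIN3A, a glutamate receptor subunit, at -2.43 ± 0.164, UCP2, a mitochondrial inner membrane carrier, at -2.43 ± 0.181, FRMPD1 at -2.40 ± 0.211 and TNS3, a focal adhesion protein, at -2.04 ± 0.189 in the authors' deposited table. MKI67, a marker of dividing cells, fell with -2.21 ± 0.215 and UHRF1, which carries DNA methylation through replication, with -2.14 ± 0.117 in the same deposited table by the authors. RGMB-AS1 at -2.19 ± 0.262, SLC46A3 at -2.13 ± 0.185 and C6orf141 at -2.06 ± 0.139 in the authors' deposited table were the remaining falls; RGMB-AS1 is an antisense gene, and the use of strand in counting is not given in the sources used here.

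**Figure D1:**
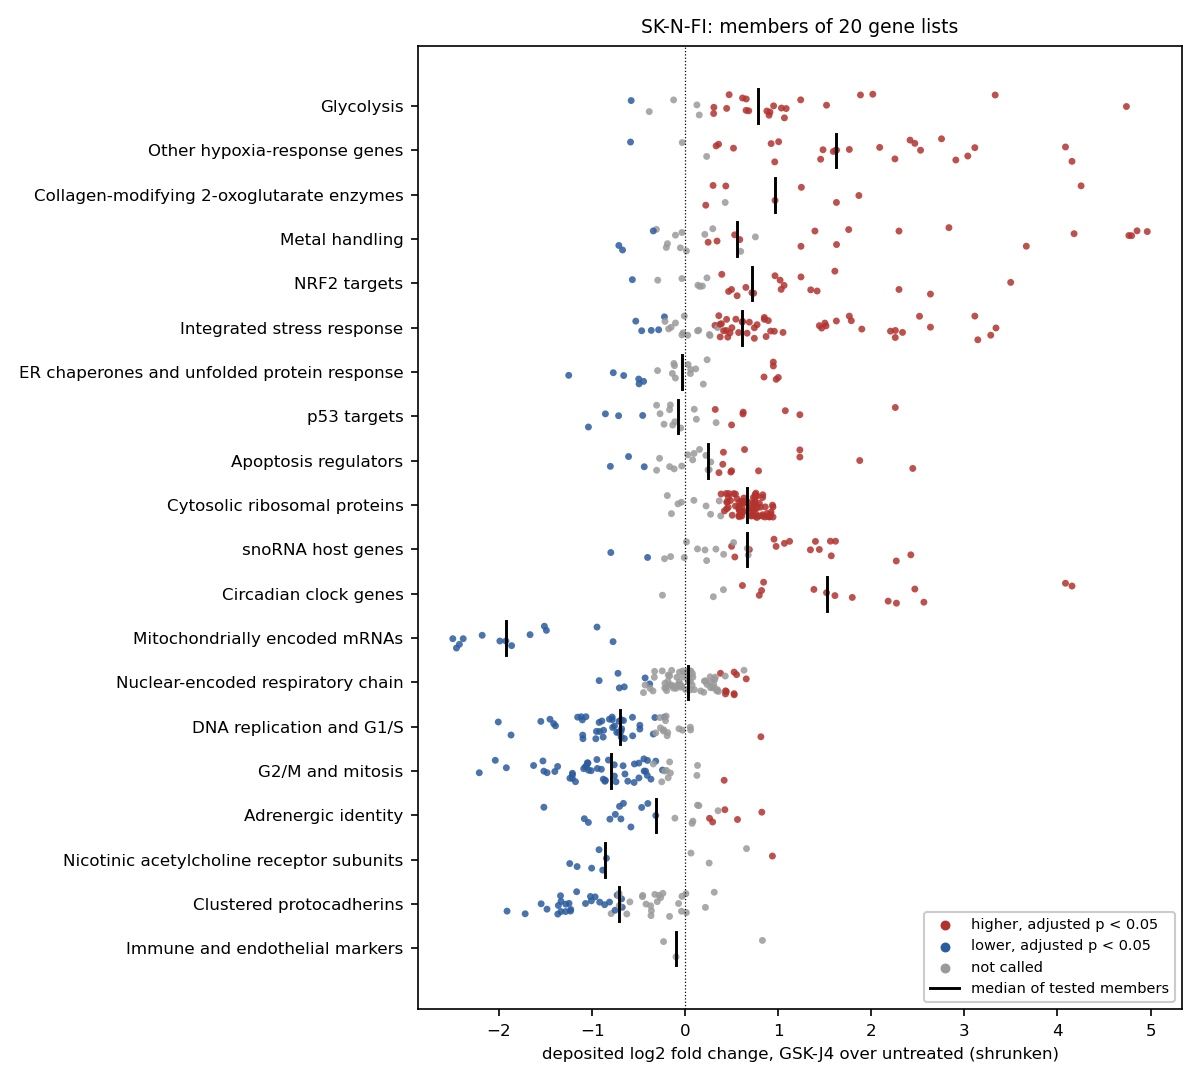
Deposited log2 fold changes (horizontal axis, GSK-J4 over untreated) of the tested members of 20 gene lists in SK-N-FI, 1 point per gene, red where higher and blue where lower at an adjusted p under 0.05, grey where not called, with a black bar at each list's median. The hypoxia-response list has its median at 1.62, the mitochondrially encoded mRNAs at -1.93 and the G2/M list at -0.79, against 0.0103 over all genes tested.

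Genes of the response to low oxygen rose together. Of 26 tested members of the hypoxia list other than glycolysis, 23 rose and 1 fell, with a median deposited log2 fold change of 1.62. Of 26 glycolysis genes 21 rose and 1 fell (median 0.78), and of 9 collagen-modifying enzymes and their partners 8 rose and none fell (median 0.97; P4HA3 was not called). These lists were chosen with earlier results of these data known, and hypoxia genes were already known to be high in this table.

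The promoters of 3 genes that rose are shown because each holds the core letters bound by hypoxia-inducible factors, ACGTG, here searched on both strands (ACGTG or CACGT, which overlap where the letters read CACGTG). The windows are the 250 bases before the RefSeq start (GRCh38.p14), written 5′ to 3′ on the gene's strand, with the motif in capitals: PLOD2 chr3:146161185-146161434, minus strand, LDHA chr11:18394313-18394562, plus strand, and BNIP3 chr10:131981924-131982173, minus strand.
PLOD2: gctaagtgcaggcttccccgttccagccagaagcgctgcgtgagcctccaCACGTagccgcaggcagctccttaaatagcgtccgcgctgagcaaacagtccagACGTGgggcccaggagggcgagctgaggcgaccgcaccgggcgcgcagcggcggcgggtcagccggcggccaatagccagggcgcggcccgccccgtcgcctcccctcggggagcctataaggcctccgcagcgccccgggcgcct
LDHA: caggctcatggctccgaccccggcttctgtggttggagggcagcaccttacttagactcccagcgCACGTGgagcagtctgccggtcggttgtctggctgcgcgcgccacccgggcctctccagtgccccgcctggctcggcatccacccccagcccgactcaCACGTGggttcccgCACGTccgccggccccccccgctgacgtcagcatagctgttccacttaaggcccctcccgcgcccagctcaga
BNIP3: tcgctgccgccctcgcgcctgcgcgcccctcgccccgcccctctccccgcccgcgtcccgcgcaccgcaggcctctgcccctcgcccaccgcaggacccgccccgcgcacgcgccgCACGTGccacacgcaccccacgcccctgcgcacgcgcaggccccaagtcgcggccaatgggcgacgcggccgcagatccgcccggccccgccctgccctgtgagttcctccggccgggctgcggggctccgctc
PLOD2 and BNIP3 each matched at 2 positions and LDHA at 5. Of the 52 genes called higher in the glycolysis, hypoxia and collagen-modifying lists, 45 had a promoter entry and 23 of these (51.1%) held the motif. Over all members of these lists the share was 46.2% of 52. It was 22.5% over the 13262 tested genes with an entry and 18.7% over all 27305 promoters. A match describes the letters in this window and not binding.

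Among the factors and oxygen sensors themselves, the changes went both ways. HIF1A (chromosome 14, 61695513 to 61748259, ENSG00000100644), the widely expressed oxygen-regulated subunit, fell from a mean of 25903 to 12374 normalized counts, with a log2 fold change of -1.06 ± 0.0847 (DESeq2 adjusted p = 2.11e-33) in the authors' deposited table. EPAS1, which encodes the related HIF-2α, rose from 1258 to 2706, with 1.08 ± 0.113 in the authors' deposited table. HIF3A, a related subunit with inhibitory forms, rose by 1.61 ± 0.283 at a low mean of 49.9, and the shared partner ARNT by 0.45 ± 0.13 in the authors' deposited table. Among prolyl hydroxylases, EGLN1 rose by 0.97 ± 0.0969 and EGLN3 fell, with -0.53 ± 0.122, in the authors' deposited table. EGLN2 (-0.12), VHL (0.14) and HIF1AN (-0.11) in the authors' deposited table were not called. Of the 11 genes listed 4 rose and 2 fell.

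Glucose entry and lactate exit rose at the RNA level. The glucose transporter gene SLC2A3 went from a mean of 848 to 3180.1 normalized counts (1.88 ± 0.0963), and SLC2A1 from 1404 to 2736 (0.95 ± 0.0974), in the authors' deposited table. SLC16A3, which exports lactate, went from 43.3 to 488 (3.33 ± 0.181), while the other lactate transporter gene SLC16A1 was not called at 0.15 ± 0.0922 in the authors' deposited table. Of 17 enzyme genes 15 rose and none fell. They ranged from PKM, the last kinase of the pathway, at 0.31 ± 0.0795 to ALDOC, an aldolase, at 1.52 ± 0.126 in the authors' deposited table. LDHA, which makes lactate, had a mean of 11226 untreated and 21307 with GSK-J4 (0.91 ± 0.102, DESeq2 adjusted p = 2.34e-17) in the authors' deposited table. LDHB, the subunit that favours the reverse reaction, was not called at -0.12 ± 0.133, nor was the muscle-type phosphofructokinase PFKM at 0.13 ± 0.0818, in the authors' deposited table.

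A regulator of flux, PFKFB3, gave the largest rise of the pathway. PFKFB3 (chromosome 10, 6144934 to 6254644, ENSG00000170525) makes fructose 2,6-bisphosphate, the activator of phosphofructokinase, and rose from 13 to 461 normalized counts (4.74 ± 0.231, DESeq2 adjusted p = 2.77e-90) in the authors' deposited table. PFKFB4 of the same family rose by 2.02 ± 0.124 and PFKFB2 was not called at -0.39 ± 0.182 in the authors' deposited table. Among kinases that shut off pyruvate dehydrogenase, PDK1 rose by 0.47 ± 0.0864 and PDK3 fell, with -0.58 ± 0.197 (DESeq2 adjusted p = 0.0128), in the authors' deposited table.

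Among secreted products, ADM, the vasodilator adrenomedullin, had a mean of 22.2 untreated and 222 treated (3.04 ± 0.239), and VEGFA, the vessel growth factor, 2203 and 7569 (1.76 ± 0.0829), in the authors' deposited table. The hormone gene STC1 rose by 2.75 ± 0.13 and the lipase inhibitor ANGPTL4 by 2.25 ± 0.194 in the authors' deposited table. The carbonic anhydrases of pH control, CA12 and CA9, rose by 2.91 ± 0.224 and 1.63 ± 0.426 in the authors' deposited table, CA9 at a mean of only 6.97. The mitophagy receptor genes BNIP3 and BNIP3L rose by 2.09 ± 0.135 and 0.92 ± 0.092, and NDRG1, a hypoxia-induced growth regulator, by 2.42 ± 0.0888, in the authors' deposited table. The single member that fell was the growth factor receptor EGFR at -0.59 ± 0.182, and HILPDA, a lipid droplet protein, was not called at 0.23 ± 0.159 in the authors' deposited table. From the list of 28 genes EPO has no row and IGFBP3 was too low to be tested.

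The collagen enzymes rose without exception among those called. PLOD2 (chromosome 3, 146069440 to 146163653, ENSG00000152952), which hydroxylates lysines of collagen and prepares its cross-links, went from a mean of 10.4 to 271 normalized counts (4.25 ± 0.253, DESeq2 adjusted p = 9.72e-61) in the authors' deposited table. The prolyl hydroxylase subunits P4HA1 and P4HA2 rose by 1.62 ± 0.11 and 1.25 ± 0.0869, and the cross-linking oxidase LOX by 1.87 ± 0.153, in the authors' deposited table.

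**Figure D2:**
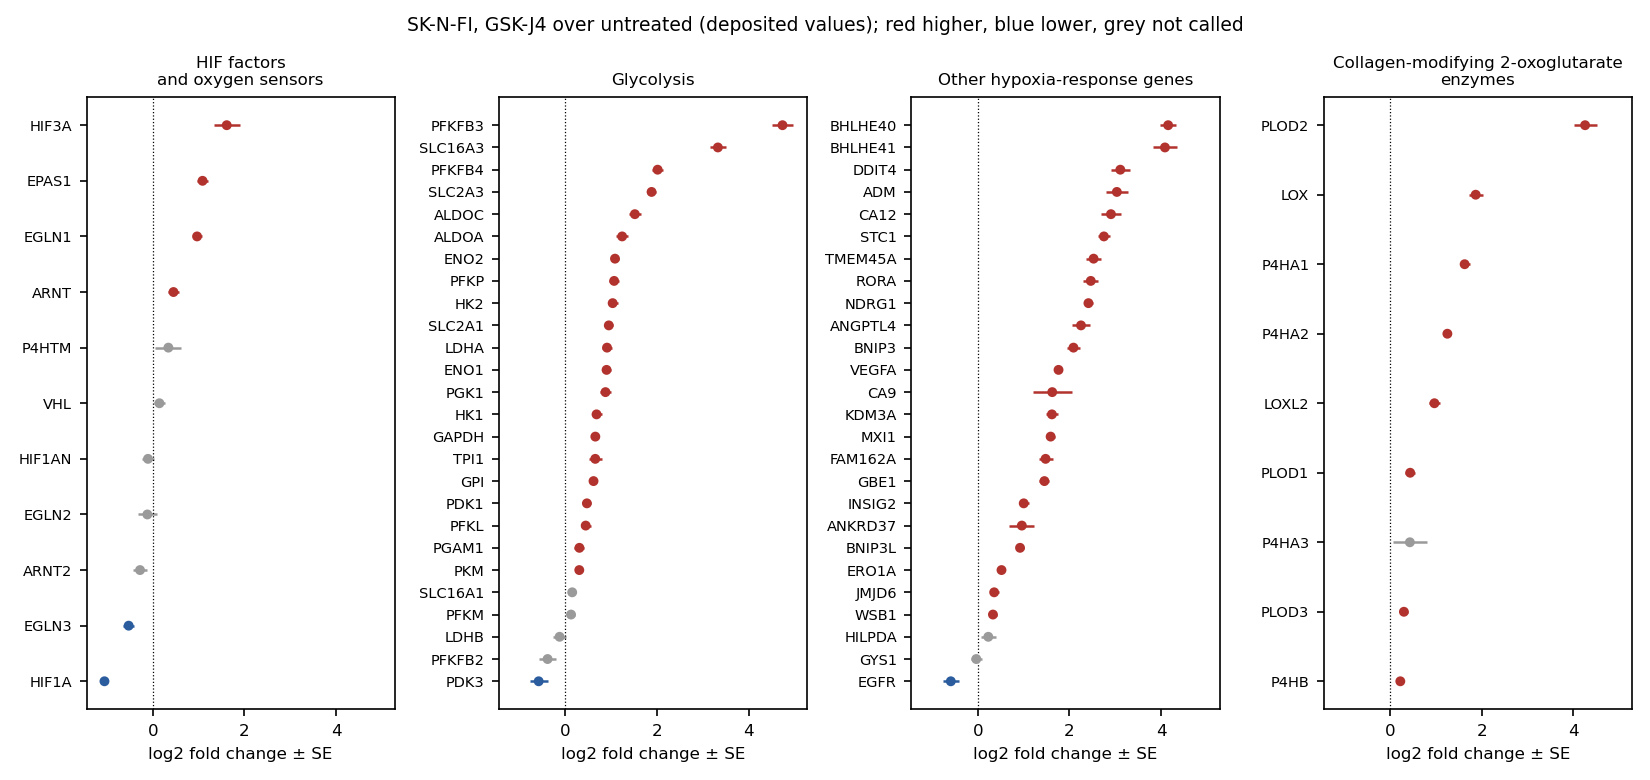
Deposited log2 fold change ± standard error (horizontal axis, GSK-J4 over untreated) of each tested gene of 4 lists in SK-N-FI, red where higher, blue where lower and grey where not called at an adjusted p under 0.05. Red points fill the glycolysis, hypoxia and collagen panels, with PFKFB3 (4.74), BHLHE40 (4.16) and PLOD2 (4.25) at their tops, while HIF1A (-1.06) is the lowest of the factors and sensors.

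The response of SK-N-FI was then set against those of LAN5 and IMR5, which share no library with it, gene by gene over 9215 genes, those whose mean reached 100 in each of the 3 tables. A two-sided Wald test on the prior-removed differences called 52.6% of these genes against LAN5 and 48.9% against IMR5 after Benjamini-Hochberg adjustment. SK-N-FI lay above both lines for 1357 genes (14.7%) and below both for 865 (9.39%). This balance turned with the scaling: with each line centred on its median 1028 genes lay above both and 1090 below both, and with totals made equal 946 and 1147. Against LAN5 alone the split was 2918 above (31.7%) and 1925 below (20.9%) as deposited, 2319 and 2438 centred, and 2040 and 2689 with equal totals. Against IMR5 alone it was 2485 above (27%) and 2025 below (22%) as deposited, 2183 and 2249 centred, and 2249 and 2200 with equal totals. The log2 total of normalized counts with GSK-J4 over untreated was -0.01 for SK-N-FI, -0.17 for LAN5 and -0.05 for IMR5, so equal totals raise the fold changes of each line by those sizes. Counts under both scalings, chosen for the lists after seeing the data, stand in brackets for the main lists below.

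In glycolysis SK-N-FI mostly lay above the MYCN-amplified lines. Of 22 glycolysis genes compared, 15 lay above both lines and 1, PFKFB2, below both (12 and 1 under either scaling). The median prior-removed log2 fold change of the 22 was 0.68 in SK-N-FI, 0.08 in LAN5 and -0.54 in IMR5, beside 0.01, -0.09 and -0.04 over all genes compared. LDHA had prior-removed values of 0.92 ± 0.104 in SK-N-FI, -0.71 ± 0.0702 in LAN5 and -1.50 ± 0.0958 in IMR5. SLC2A1 had 0.96 ± 0.0987 in SK-N-FI, -0.89 ± 0.111 in LAN5 and -1.41 ± 0.0861 in IMR5 as prior-removed values. The treated-to-untreated direction of both genes was thus opposite in SK-N-FI and in the other lines. PFKFB3 had 5.15 ± 0.251 in SK-N-FI, 0.79 ± 0.0648 in LAN5 and -1.03 ± 0.0979 in IMR5, and PLOD2 4.71 ± 0.28 in SK-N-FI, 0.28 ± 0.0999 in LAN5 and -0.34 ± 0.0981 in IMR5, again prior-removed. ENO2, the neuronal enolase, had 1.10 ± 0.0914 in SK-N-FI, 1.03 ± 0.0702 in LAN5 and 1.16 ± 0.0907 in IMR5, positive in all 3, and neither difference of SK-N-FI was called (adjusted p = 0.666 and 0.712, Wald test with Benjamini-Hochberg adjustment).

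Of 15 other hypoxia genes compared, 5 lay above both lines and none below. They were BNIP3, the histone demethylase KDM3A, the MYC antagonist MXI1, FAM162A and HILPDA. For BNIP3 the prior-removed values were 2.14 ± 0.138 in SK-N-FI, 1.22 ± 0.0776 in LAN5 and -0.93 ± 0.117 in IMR5. HILPDA had 0.24 ± 0.165 in SK-N-FI, -0.94 ± 0.145 in LAN5 and -0.79 ± 0.118 in IMR5, so that its place above the others came from lower prior-removed values there. Among the collagen enzymes PLOD2, LOX and P4HA1 lay above both lines, of 7 compared. HIF1A lay below both lines, with prior-removed values of -1.07 ± 0.0855 in SK-N-FI, -0.24 ± 0.074 in LAN5 and -0.61 ± 0.0576 in IMR5, and EGLN1 above both.

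Mitochondrially encoded RNA moved in opposite directions by class. The mitochondrial genome encodes 13 proteins of the respiratory chain, 2 ribosomal RNAs and the tRNAs for its own translation, all cut from long transcripts of its 2 strands. SK-N-FI cells had less of all 13 mRNAs (median deposited log2 fold change -1.93), each called lower, while both rRNAs rose. MT-CO1 (ENSG00000198804), a cytochrome oxidase subunit, had a mean of 225219 normalized counts untreated and 40787 with GSK-J4 (-2.43 ± 0.107, DESeq2 adjusted p = 1.98e-110) in the authors' deposited table. MT-RNR2, the large rRNA, had 96209 and 138451 (0.51 ± 0.124), and MT-RNR1, the small one, 8554 and 15922 (0.88 ± 0.121), in the authors' deposited table. Computed from the deposited means and prior-removed fold changes, the 13 mRNAs made up 5.24% of all normalized counts untreated and 1.36% with GSK-J4, and the rRNAs 0.648% and 0.964%. Only polyadenylated RNA was selected, and how this bears on mitochondrial rRNA, or on a change in the length of tails, was not tested. These mRNAs also serve as a sign of RNA quality, and in bulk RNA fewer mitochondria and less RNA in each cannot be told apart.

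Along the genome the falls were uneven. The pair of genes that follow the rRNAs had the smallest falls, MT-ND1 with -0.78 ± 0.101 and MT-ND2 with -0.95 ± 0.102 in the authors' deposited table. The 3 cytochrome oxidase mRNAs had the largest together, MT-CO1 (-2.43), MT-CO2 (-2.46 ± 0.138) and MT-CO3 (-2.50 ± 0.128), with the ATPase mRNAs MT-ATP8 (-1.99) and MT-ATP6 (-1.67) between them in position, in the authors' deposited table. MT-ND3 (-1.49), MT-ND4L (-1.86) and MT-ND4 (-1.51) fell less than MT-ND5 (-2.38) and MT-CYB (-2.18), which lie beyond them, in the authors' deposited table. MT-ND6, the single mRNA of the other strand, fell with -1.93 ± 0.17 in the authors' deposited table. These differences between genes of the table were not tested. Nuclear copies of mitochondrial sequence, MTCO1P12 at -2.23 ± 0.0985 and MTATP6P1 at -1.62 ± 0.144 in the authors' deposited table, share reads with MT-CO1 and MT-ATP6, so the split between them is uncertain.

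Compared with LAN5 and IMR5, 10 of the 13 mRNAs fell further in SK-N-FI than in both (11 centred, 12 with equal totals). The exceptions were MT-ND1 and MT-ND3, whose differences from LAN5 had an adjusted p of 0.0604 and 0.117 (Wald test), and MT-ND6 (0.273). The median prior-removed value was -2.01 in SK-N-FI, -1.01 in LAN5 and -0.62 in IMR5. MT-CO1 had -2.47 ± 0.109 in SK-N-FI, -1.18 ± 0.152 in LAN5 and -0.88 ± 0.0696 in IMR5 as prior-removed values, and MT-ND4 -1.53 ± 0.0992 in SK-N-FI, -0.28 ± 0.167 in LAN5 and 0.32 ± 0.0555 in IMR5. MT-RNR2 lay above both lines, with a prior-removed value of 0.53 ± 0.126, against negative ones in LAN5 and IMR5.

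**Figure D3:**
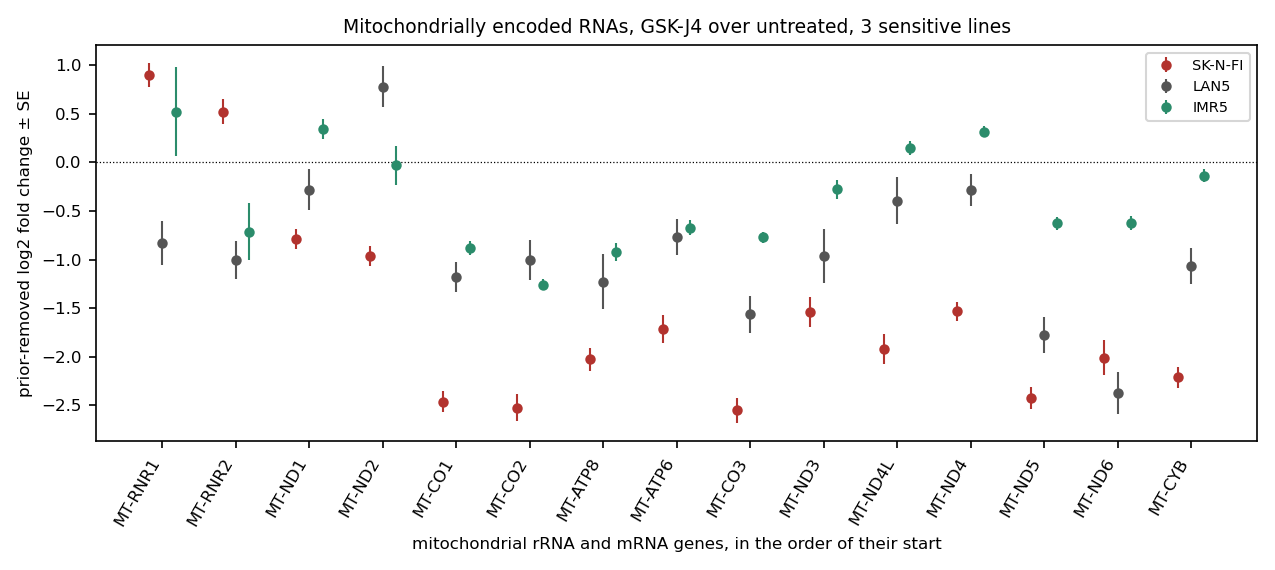
Prior-removed log2 fold change ± standard error (vertical axis, GSK-J4 over untreated) of the 2 rRNA and 13 mRNA genes of the mitochondrial genome, in the order of their start, for SK-N-FI (red), LAN5 (grey) and IMR5 (green). The SK-N-FI points are above 0 for both rRNAs and below 0 for all 13 mRNAs, and below both other lines for 12 of the 13.

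The nuclear genes of the same chain did not share the fall. Of 76 nuclear-encoded respiratory chain subunits tested, 9 rose and 6 fell, with a median of 0.03. SDHD of complex II rose by 0.66 ± 0.167 and UQCR11 of complex III fell, with -0.92 ± 0.189, in the authors' deposited table. Of 36 genes that copy, transcribe and process the mitochondrial genome, 5 rose and 9 fell. The transcription factor TFAM was not called at -0.07 ± 0.101, and the polymerase POLRMT and the mRNA stabiliser LRPPRC rose by 0.32 ± 0.112 and 0.28 ± 0.111, in the authors' deposited table. TRMT10C, a subunit of the enzyme that cuts mitochondrial tRNAs free, fell with -0.61 ± 0.135 in the authors' deposited table. Of 17 mitochondrial tRNA synthetase genes, a family chosen after its values were seen, 9 fell and 1 rose. AARS2, the alanine member, fell with -1.63 ± 0.163 in the authors' deposited table and lay below LAN5 and IMR5. Of 15 members of this family compared, 4 lay above both lines and 2 below both (2 and 2 centred, 1 and 2 with equal totals). Of 20 genes of the citric acid cycle and of 2-hydroxyglutarate removal 4 rose and 7 fell, with fumarase FH at -0.66 ± 0.134 and D2HGDH at -0.97 ± 0.214 among the falls in the authors' deposited table.

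Metallothionein genes rose strongly, and some genes of zinc and iron transport rose with them. Metallothioneins are small cysteine-rich proteins that hold zinc and copper and are induced when free zinc rises. Of 8 tested metallothionein genes 7 rose and none fell, with a median of 4.47. MT2A (chromosome 16, 56608199 to 56609497, ENSG00000125148) had a mean of 167 normalized counts untreated and 6227 with GSK-J4 (4.96 ± 0.184, DESeq2 adjusted p = 4.61e-156) in the authors' deposited table. MT1E went from 28.5 to 1018, MT1F from 33.6 to 786 and MT1M from 16.8 to 279.6 by the computed group means. MT1X went from 4.47 to 245 (4.80 ± 0.321), and MT1G had 4.85 ± 0.361 at a mean of 75.4, in the authors' deposited table. MT1A was not called at 0.60 ± 0.397 in the authors' deposited table, and MT3 and MT1B were too low to be tested. These genes are near-identical copies on chromosome 16, and reads can be split between them.

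The promoters of MT2A and MT1X are shown because the letters of the metal response element, TGCNCNC on either strand, recur in them. The windows are again the 250 bases before the RefSeq start (GRCh38.p14), 5′ to 3′, motif in capitals: MT2A chr16:56608334-56608583, plus strand, and MT1X chr16:56682220-56682469, plus strand.
MT2A: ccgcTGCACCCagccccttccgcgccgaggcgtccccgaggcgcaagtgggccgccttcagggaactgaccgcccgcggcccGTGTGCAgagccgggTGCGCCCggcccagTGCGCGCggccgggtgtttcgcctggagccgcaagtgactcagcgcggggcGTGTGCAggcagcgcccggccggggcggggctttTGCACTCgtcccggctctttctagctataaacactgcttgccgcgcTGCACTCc
MT1X: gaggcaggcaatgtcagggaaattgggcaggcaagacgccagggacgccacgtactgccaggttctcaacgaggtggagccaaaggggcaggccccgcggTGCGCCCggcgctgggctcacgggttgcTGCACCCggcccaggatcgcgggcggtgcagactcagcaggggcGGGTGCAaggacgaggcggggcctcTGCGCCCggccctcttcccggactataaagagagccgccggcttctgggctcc
MT2A matched at 7 positions and MT1X at 4. The motif is short, and 48.4% of all promoters and 55.2% of those of tested genes hold it at least once. All 3 metallothioneins called higher that have a promoter entry, of 7 called higher, held it.

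Beyond the metallothioneins, the zinc exporter SLC30A1 rose from 1095 to 8018 normalized counts (2.83 ± 0.0992), and the importer SLC39A14 by 0.53 ± 0.0949, in the authors' deposited table. Of 9 tested zinc transport and sensing genes 4 rose and none fell. The zinc-sensing factor MTF1 was not called at 0.30 ± 0.123 in the authors' deposited table. Of 13 iron genes 5 rose and 3 fell. HMOX1, which frees iron from haem, rose by 2.30 ± 0.154, the transferrin receptor TFRC by 1.39 ± 0.116 and the ferritin light chain FTL by 1.24 ± 0.156 in the authors' deposited table. The iron-regulatory proteins ACO1 (-0.34) and IREB2 (-0.67) and the exporter SLC40A1 (-0.71) fell in the authors' deposited table. HMOX1 lay below LAN5 and above IMR5, with prior-removed values of 2.38 ± 0.16 in SK-N-FI, 9.46 ± 0.264 in LAN5 and -0.97 ± 0.207 in IMR5. MT2A lay below both, with prior-removed values of 5.22 ± 0.194 in SK-N-FI, 7.81 ± 0.462 in LAN5 and 7.61 ± 0.237 in IMR5.

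Antioxidant genes driven by the factor NRF2 rose for the most part. Of 25 targets and regulators tested 18 rose and 1 fell (median 0.72). Of the 22 targets alone 16 rose and 1 fell (median 0.85). The cystine carrier SLC7A11 rose by 2.64 ± 0.131, the glutathione-making GCLC by 1.06 ± 0.0994 and the quinone reductase NQO1 by 1.03 ± 0.142 in the authors' deposited table. PRDX1, a peroxidase, fell with -0.57 ± 0.109 in the authors' deposited table. The thioredoxin gene TXN was not called at 0.23 ± 0.168 in the authors' deposited table. Of 21 targets and regulators compared, 14 lay below LAN5 and 3 above it, while 14 lay above IMR5 and 3 below it. The genes behind these counts need not be the same, and 3 lay above both lines and 3 below both. Over all genes compared, 20.9% lay below LAN5 and 31.7% above it, and 27% lay above IMR5 and 22% below it. The prior-removed medians of the 21 were 0.66 in SK-N-FI, 0.94 in LAN5 and -0.13 in IMR5.

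The integrated stress response halts translation through phosphorylation of eIF2α and raises the factor ATF4, which induces amino acid supply genes. Of 63 tested members 45 rose and 5 fell, with a median of 0.61. All 7 transcription factors rose, with ATF4 at 1.44 ± 0.135 and DDIT3, which encodes CHOP, at 2.21 ± 0.184 in the authors' deposited table. All 7 feedback genes rose too, among them PPP1R15A, a subunit of the phosphatase that reverses the signal, from 358 to 3615 normalized counts (3.28 ± 0.107), and TRIB3 (2.33 ± 0.156) in the authors' deposited table. Of 10 amino acid transporters 8 rose, including SLC3A2, the heavy chain of several exchangers, at 2.52 ± 0.136 in the authors' deposited table. Of 14 synthesis genes 10 rose, including asparagine synthetase ASNS at 1.47 ± 0.0999 and the serine-making PHGDH at 0.89 ± 0.113, and the arginine-making ASS1 fell with -0.53 ± 0.104, in the authors' deposited table. The 18 cytosolic tRNA synthetases were mixed, with 9 higher and 3 lower, from SARS1 at 0.96 ± 0.0901 to VARS1 at -0.47 ± 0.0931 in the authors' deposited table.

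SK-N-FI more often lay below the amplified lines than above them in this list. Of 59 compared, 21 lay below both lines and 4 above both (23 and 4 with each line centred, 24 and 3 with equal totals). ATF4 itself was 1 of the 4, with prior-removed values of 1.48 ± 0.139 in SK-N-FI, 0.95 ± 0.0855 in LAN5 and 0.71 ± 0.104 in IMR5. ASNS had 1.49 ± 0.101 in SK-N-FI, 2.54 ± 0.0604 in LAN5 and 3.01 ± 0.205 in IMR5 and TRIB3 2.42 ± 0.162 in SK-N-FI, 4.35 ± 0.113 in LAN5 and 5.15 ± 0.167 in IMR5, prior-removed. GDF15, a secreted stress cytokine, went from 19.5 to 216 normalized counts by the computed group means. It had the lowest difference of all genes below both. Its prior-removed values were 3.47 ± 0.274 in SK-N-FI, 7.44 ± 0.518 in LAN5 and 9.65 ± 0.27 in IMR5. The letters of the amino acid response element, TGATGNAA on either strand, were in 5 of 36 promoters (13.9%) of the members called higher and in 15.4% of 52 over all members with an entry. They were in 1.7% of the 13262 promoters of tested genes and in 3.19% of all promoters.

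Genes of protein folding in the endoplasmic reticulum split by role. Of 8 sensors and factors 5 rose, with ERN1, the IRE1 sensor, at 1.00 ± 0.134 and XBP1 at 0.95 ± 0.144 in the authors' deposited table. Of 14 chaperones none rose and 6 fell, with MANF at -0.77 ± 0.175 and SDF2L1 at -1.25 ± 0.237, while HSPA5, the main chaperone, was not called at -0.10 ± 0.102, in the authors' deposited table. Of 18 cytosolic heat shock genes 3 rose, among them the factor HSF1 at 1.13 ± 0.12, and 6 fell, among them HSP90AA1 at -0.53 ± 0.129, in the authors' deposited table.

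Targets of p53, the factor that arrests or kills damaged cells, showed no common direction. Of 22 tested 7 rose and 4 fell, with a median of -0.08. CDKN1A, the cell cycle inhibitor p21, had a mean of 1221 normalized counts untreated and 1328 with GSK-J4 and was not called (0.12 ± 0.107), nor was MDM2 (0.10 ± 0.11), in the authors' deposited table. GADD45A rose by 2.26 ± 0.167 and the death receptor TNFRSF10B by 1.23 ± 0.104 in the authors' deposited table; both are also induced by the stress response above, as background. TP53I3 and the repair gene XPC fell, with -1.04 ± 0.135 and -0.72 ± 0.167 in the authors' deposited table. Of 18 compared, 11 lay below both LAN5 and IMR5 (12 under either scaling) and none above, and the medians of the prior-removed values were 0.02 in SK-N-FI, 1.74 in LAN5 and 1.17 in IMR5. CDKN1A had prior-removed values of 0.12 ± 0.109 in SK-N-FI, 3.47 ± 0.0791 in LAN5 and 2.18 ± 0.0985 in IMR5, and RRM2B, a p53-induced reductase subunit, -0.17 ± 0.0993 in SK-N-FI, 2.37 ± 0.0772 in LAN5 and 2.05 ± 0.0796 in IMR5. GADD45A was not among the 11, with prior-removed values of 2.35 ± 0.174 in SK-N-FI, 1.83 ± 0.0899 in LAN5 and 2.21 ± 0.0709 in IMR5. The non-coding RNA gene PURPL also lay below both, with prior-removed values of -1.21 ± 0.237 in SK-N-FI, 1.90 ± 0.1 in LAN5 and 1.75 ± 0.122 in IMR5.

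Of 27 tested regulators of apoptosis 11 rose and 3 fell. BBC3 is counted among the 11, although its sign was used to set the direction and is not a result. Among genes of the BH3-only proteins, which trigger mitochondrial cell death, HRK rose from 19.5 to 125 normalized counts (2.44 ± 0.241) and BID by 0.49 ± 0.172, and BMF fell with -0.80 ± 0.138, in the authors' deposited table. BBC3, whose sign set the direction, had 1.88 ± 0.206 in the authors' deposited table, and lay below both other lines at prior-removed values of 2.00, 2.78 and 3.43 (SK-N-FI, LAN5, IMR5). PMAIP1 (0.26 ± 0.132) and BCL2L11 (0.22 ± 0.109) were not called in the authors' deposited table. Among survival genes BCL2L2 rose by 0.64 ± 0.111, and BCL2 (0.08 ± 0.137) and MCL1 (0.15 ± 0.083) were not called, in the authors' deposited table.

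**Figure D4:**
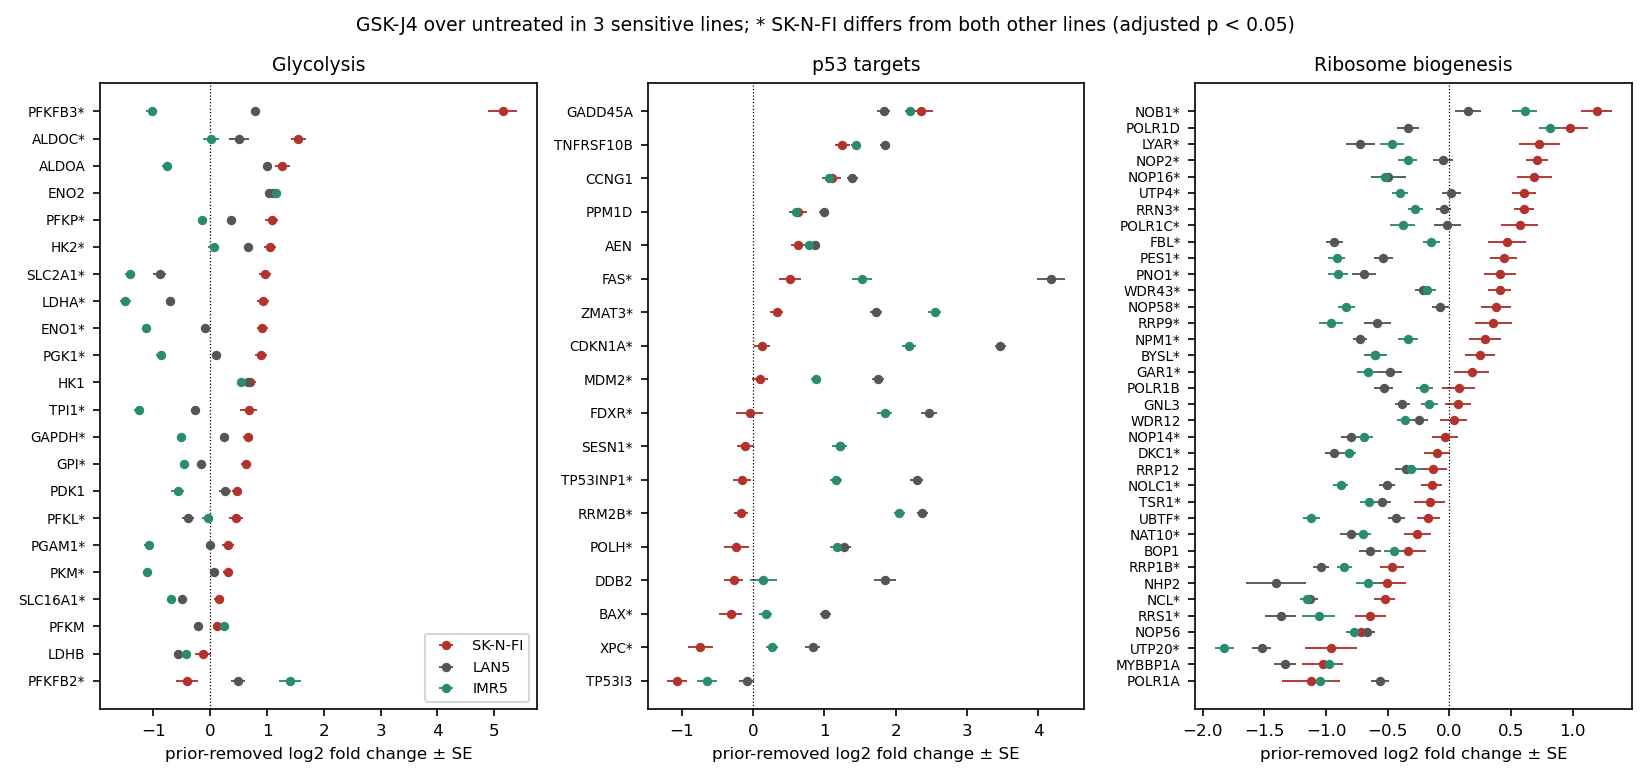
Prior-removed log2 fold change ± standard error (horizontal axis, GSK-J4 over untreated) of the compared genes of the glycolysis, p53 and ribosome biogenesis lists in SK-N-FI (red), LAN5 (grey) and IMR5 (green), with a star at genes where SK-N-FI differs from both others. Stars mark 16 of 22 glycolysis genes (15 above both), 11 of 18 p53 targets (all below both) and 26 of 36 ribosome biogenesis genes (all above both).

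Genes of DNA replication and cell division fell. Of 54 G1/S genes 40 fell and 1 rose (median -0.70), and of 56 G2/M genes 46 fell and 1 rose (median -0.79). RRM2, which makes deoxynucleotides, fell with -1.87 ± 0.114, the helicase subunit MCM6 with -1.45 ± 0.0929, and E2F8, a repressor factor of the cycle, with -2.01 ± 0.183 in the authors' deposited table. In mitosis genes, MKI67 went from 7260.0 to 1401 normalized counts, the kinesin KIF20A fell with -2.04 ± 0.135, the centromere histone CENPA with -1.92 ± 0.168 and the kinase PLK1 with -1.52 ± 0.129 in the authors' deposited table. The members that rose were the licensing factor CDT1 at 0.81 ± 0.136 and the kinase NEK2 at 0.42 ± 0.116 in the authors' deposited table. Against the other lines, 31 of 56 G2/M genes lay above LAN5 and 7 below it (22 and 8 centred, 19 and 9 with equal totals), while 6 lay above IMR5 and 21 below it, with prior-removed medians of -0.81 in SK-N-FI, -0.98 in LAN5 and -0.64 in IMR5. Of 53 G1/S genes 10 lay above LAN5 and 17 below it (8 and 21 centred, 7 and 24 with equal totals), and 18 lay above IMR5 and 4 below it, with medians of -0.71, -0.61 and -0.91. Over all genes compared, 31.7% lay above LAN5 and 20.9% below it, and 27% lay above IMR5 and 22% below it. MCM6 had prior-removed values of -1.47 ± 0.094 in SK-N-FI, -1.40 ± 0.0608 in LAN5 and -1.36 ± 0.0748 in IMR5, and neither difference was called.

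Genes that build ribosomes changed in both directions. Of 36 ribosome biogenesis factors 13 rose and 8 fell (median 0.07). NOB1, which finishes the small subunit, rose by 1.17 ± 0.122 and the methyltransferase NOP2 by 0.71 ± 0.0879, and POLR1A, the large subunit of RNA polymerase I, and the nucleolin gene NCL fell with -1.05 ± 0.217 and -0.52 ± 0.0845, in the authors' deposited table. Of the 36, 26 lay above both LAN5 and IMR5 (22 centred, 20 with equal totals) and none below, with prior-removed medians of 0.07, -0.56 and -0.66 in SK-N-FI, LAN5 and IMR5. Fibrillarin, FBL, had 0.47 ± 0.155 in SK-N-FI, -0.93 ± 0.0723 in LAN5 and -0.15 ± 0.0705 in IMR5, and nucleophosmin, NPM1, 0.29 ± 0.128 in SK-N-FI, -0.73 ± 0.0563 in LAN5 and -0.33 ± 0.0816 in IMR5, prior-removed. Many of these genes are known targets of MYC proteins. MYCN itself was not called (-0.30 ± 0.203 for SK-N-FI by the authors' deposited table). Its prior-removed values were -1.91 ± 0.0489 in LAN5 and -1.08 ± 0.0709 in IMR5. Whether MYCN bears on the difference between lines in ribosome biogenesis genes was not tested. SK-N-FI is the only line of the series labelled MYCN wildtype, so MYCN status cannot be separated from other differences between lines. MYC was not called at 0.23 ± 0.132, and the MYC antagonists MXI1 and MXD1 rose by 1.59 ± 0.0997 and 0.99 ± 0.113, in the authors' deposited table. Of 11 MYC network genes 4 rose and 2 fell.

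Cytosolic ribosomal proteins and snoRNA host genes, families chosen after their values were seen, are given as a description. Of 84 ribosomal protein genes 75 were higher and none lower, all with deposited log2 fold changes under 1 and a median of 0.66. RPL12 had 0.94 ± 0.139 and RPS13 0.94 ± 0.161 in the authors' deposited table; reads of these genes can be shared with their many processed copies. Of 29 tested snoRNA host genes 15 were higher and 2 lower, with SNHG7 at 2.27 ± 0.235, GAS5 at 1.40 ± 0.141 and EPB41L4A-AS1 at 2.42 ± 0.176 in the authors' deposited table. The prior-removed medians of the ribosomal protein genes compared were 0.72 in SK-N-FI, -0.15 in LAN5 and 0.40 in IMR5, and 26 of 81 lay above both (17 centred, 19 with equal totals).

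Among the 10 called higher with the largest means were EEF1A1 (0.38 ± 0.115), the elongation factor, EEF2 (0.71 ± 0.0937), ACTG1 (0.83 ± 0.123) and RPL4 (0.88 ± 0.119) in the authors' deposited table. RPLP0 (0.70 ± 0.148), NAP1L1 (0.50 ± 0.125), the granule protein gene SCG2 (0.26 ± 0.0906) and the nuclear RNA MALAT1 (1.26 ± 0.364, with the widest error of these) were others beside MT-RNR2 in the authors' deposited table. Among the 10 called lower, 8 were mitochondrial mRNAs, and the others were RGS5 (-0.46 ± 0.0756), a regulator of G protein signalling, and HSPA8 (-0.51 ± 0.0801) in the authors' deposited table.

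Genes of neuroblastoma identity changed in part. Markers of the adrenergic identity of neuroblastoma differed widely in level. Mean normalized counts were 8614 for GATA2 and 3334 for HAND2, but 236 for GATA3, 20.8 for TFAP2B and 1.38 for PNMT in the authors' deposited table. Genes of the mesenchymal state differed as widely, with 23246 for FN1, 3843 for VIM and 0.776 for PRRX1 in the authors' deposited table. TH is not analysed here. Of 23 tested adrenergic genes 12 fell and 5 rose (median -0.32). The factor HAND1 fell with -1.08 ± 0.114, HAND2 with -0.71 ± 0.111 and the granule protein CHGA with -1.04 ± 0.123, while GATA3 rose by 0.82 ± 0.174, in the authors' deposited table. Of 32 genes of the mesenchymal state 15 rose and 1 fell (median 0.51). VIM, the intermediate filament vimentin, rose by 1.12 ± 0.153, and TWIST1, a factor of that state, by 1.06 ± 0.174, and the surface protein THY1 fell with -0.84 ± 0.0955, in the authors' deposited table. Of 16 tested transcription factors of the state 6 rose and none fell, among them TWIST1 and FOSL1 (1.76 ± 0.331), while SNAI2 was not called at 0.10 ± 0.115, in the authors' deposited table. PRRX1 was too low to be tested. With genes of a mean of at least 50 tested alone, 9 mesenchymal genes rose. Of 10 mesenchymal genes compared, 2 lay above both other lines and none below both, beside 14.7% above both over all genes compared. The 2 were VIM and TWIST1, with prior-removed values of 1.16, -0.04 and 0.02 and of 1.11, -1.45 and -0.28 (SK-N-FI, LAN5, IMR5). The prior-removed medians of the 10 were 0.18, 0.12 and -0.16 in the same order.

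Of 25 neuronal cytoskeleton and synapse genes 12 rose and none fell. STMN2, which acts in growing neurites, rose by 1.77 ± 0.16, and the vesicle fusion genes SNAP25 and VAMP2 by 1.25 ± 0.15 and 1.25 ± 0.175, in the authors' deposited table. Of 11 growth factor receptors tested 6 fell and 1 rose. GFRA2 and GFRA1, co-receptors of glial cell-derived factors, fell with -1.41 ± 0.114 and -0.89 ± 0.144, RET with -0.62 ± 0.0892 and the neurotrophin receptor NGFR with -0.86 ± 0.123, and ALK rose by 0.88 ± 0.275, in the authors' deposited table. NGFR lay below both lines, with prior-removed values of -0.88 ± 0.126 in SK-N-FI, 1.47 ± 0.165 in LAN5 and 4.49 ± 0.208 in IMR5.

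Signalling genes rose in several groups. Of 18 tested immediate early genes 11 rose and none fell, with FOS at 2.01 ± 0.212 and NR4A1 at 1.45 ± 0.128, while EGR1 was not called at 0.25 ± 0.121, in the authors' deposited table. EGR1 had prior-removed values of 0.25 ± 0.123 in SK-N-FI, 2.85 ± 0.127 in LAN5 and 4.90 ± 0.383 in IMR5 and lay below both, as did JUNB, JUND and IER2, of 9 compared. Of 12 genes that feed back on ERK signalling 8 rose and none fell, with SPRY2 at 1.16 ± 0.12 and DUSP10 at 1.22 ± 0.143 in the authors' deposited table. Of 24 autophagy genes 14 rose and 1 fell, with the receptor OPTN at 1.46 ± 0.11 and ATG14 at 1.19 ± 0.0915 in the authors' deposited table. Of 9 brakes on mTORC1 4 rose, led by DDIT4 at 3.11 ± 0.2 in the authors' deposited table. Of 14 Notch and ID genes 4 rose and 4 fell.

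Interferon and antigen presentation genes parted. Of 20 tested interferon-stimulated genes 1 rose and 6 fell, with the double-stranded RNA sensor OAS1 at -1.08 ± 0.116 and IFIT1 at -1.26 ± 0.213 in the authors' deposited table. Of 14 MHC class I genes 5 rose and none fell. HLA-B went from 108 to 1211 normalized counts (3.33 ± 0.175), and HLA-C and HLA-E rose by 1.33 ± 0.125 and 1.09 ± 0.145, in the authors' deposited table. B2M, the shared light chain, was not called at 0.17 ± 0.13 in the authors' deposited table. HLA genes are similar to one another, and their reads can be shared.

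Lipid synthesis genes were divided. Of 27 genes of cholesterol synthesis and uptake 7 rose and 8 fell, with the regulator SREBF2 at 0.74 ± 0.0904 and INSIG2 at 1.00 ± 0.109 among the rises, and FDPS at -0.84 ± 0.122 and TM7SF2 at -1.17 ± 0.169 among the falls, in the authors' deposited table. Of 10 fatty acid genes 2 rose and 5 fell, with the elongase ELOVL6 at -0.73 ± 0.11 in the authors' deposited table.

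The histone demethylases that the compound is made to inhibit were themselves higher. KDM6B and KDM6A rose by 0.83 ± 0.148 and 0.39 ± 0.139 in the authors' deposited table. Of 22 genes of the JmjC family 8 rose and 3 fell, with KDM4B at 0.78 ± 0.113 and RIOX1 at -1.14 ± 0.226 in the authors' deposited table. Of 11 subunits of PRC2, which writes H3K27 methylation, 2 rose and 5 fell, with EZH2 at -0.66 ± 0.0867 and PHF1 at 1.31 ± 0.125 in the authors' deposited table. Of 8 DNA methylation and TET genes 1, TET3, rose by 0.69 ± 0.156 and 3 fell, among them DNMT1 with -0.41 ± 0.134 and DNMT3B with -0.77 ± 0.165, in the authors' deposited table.

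Markers of other cells did not move as a group. Of 7 tested Schwann and glial markers 1 rose, and the defining factor SOX10 has no row. Of 9 fibroblast and muscle markers 2 rose (DCN and COL3A1) and 2 fell (LUM and COL1A1), and DCN, LUM and PDGFRB were not low, with means of 1600.4, 715 and 396 normalized counts in the authors' deposited table. None of the 3 immune and endothelial markers tested (CD68, CD14 and VWF) was called, and the others of the 11 listed were too low to be tested or have no row.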

How the data were processed

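Polyadenylated RNA was sequenced with a stranded mRNA kit, per the labels' protocols; FastQC, STAR, DESeq2 and hg38 are named, without versions, per the submitters' processing notes. Not given in the sources used here are the annotation, the counting tool, the use of strand and which way the contrast runs. The signal (mean of normalized counts), the log2 fold change and its log2 standard error, the Wald score, the p-value and the adjusted p-value are used as deposited by the authors. No value of a single library was used, so nothing was refitted. Genes were named by Ensembl ID from a name table (25530 of 32760 matched) and placed with GENCODE 29 (GRCh38). The members and lists were chosen with earlier results of these data known, and 10 of the 49 lists after their values were seen. Some members that the rule below would name are not reported here.

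The deposited standard errors shrink again at low means, the mark of a prior centred on 0. That prior's SD was taken as 2 times the largest error (0.428 in SK-N-FI), and it was removed by solving for each gene, with the smaller error taken above the mean where the running median (501 genes) of the error peaks (4.66 in SK-N-FI). Differences between lines used a two-sided Wald test on these values with Benjamini-Hochberg adjustment over 9215 genes. The procedure was tried on simulated fold changes of SK-N-FI and LAN5 genes, shrunken with the same prior that was then removed and without a shift in scaling. That trial therefore cannot speak to the choice of prior or of scaling. Named genes were the 15 largest rises and falls at a mean of at least 100, the members of lists, the 12 largest differences from both lines in each direction and the 10 called genes with the largest means in each direction. Promoters came from RefSeq (GRCh38.p14). Python 3.11.15, pandas 2.3.3 and scipy 1.17.1 were used.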

Additional observations from a re-analysis of the deposited data

Results flagged for a closer look

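The response of SK-N-FI differed from those of both LAN5 and IMR5, by the two-sided Wald test with Benjamini-Hochberg adjustment, for 1357 genes above both and 865 below both (1028 and 1090 with each line centred on its median, 946 and 1147 with totals made equal), and the 12 largest on each side by the smaller of their 2 differences are given here. Values are log2 differences of prior-removed fold changes. Above both lines, the smaller difference was 4.43 for PLOD2, 4.35 for PFKFB3, 2.97 for IGFBP5, which binds insulin-like growth factors, and 2.72 for ENSG00000260400, which has no symbol in the name table. It was 2.56 for PAM, which amidates peptide hormones, 2.51 for ARHGAP36, 2.26 for PLPPR4, 2.17 for the mitochondrial adenylate kinase AK4 and 2.10 for LOX. It was 2.02 for ZNF395, 1.94 for LRRN3 and 1.86 for EPB41L4A-AS1.

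These genes did not all rise in SK-N-FI. IGFBP5 had prior-removed values of 0.03 ± 0.158 in SK-N-FI, -2.94 ± 0.0712 in LAN5 and -3.88 ± 0.153 in IMR5, and LRRN3 of -0.01 ± 0.107 in SK-N-FI, -1.95 ± 0.0668 in LAN5 and -2.52 ± 0.135 in IMR5, so that their place above the others came with falls in the amplified lines. PAM had 2.65 ± 0.128 in SK-N-FI, -0.24 ± 0.0732 in LAN5 and 0.09 ± 0.0931 in IMR5 and AK4 2.18 ± 0.107 in SK-N-FI, 0.01 ± 0.151 in LAN5 and -0.27 ± 0.0903 in IMR5.

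Below both lines, the smaller difference was -3.98 for GDF15, -3.26 for the linker histone H1-2, -3.16 for MCHR1, a neuropeptide receptor, -2.97 for PURPL and -2.91 for TRIM66. It was -2.60 for EGR1, -2.54 for CYRIA, -2.43 for the vesicle protein RAB3B, -2.39 for MT2A, -2.37 for lamin A/C (LMNA), -2.36 for the secreted peptide gene VGF and -2.35 for NGFR. LMNA had prior-removed values of 0.05 ± 0.104 in SK-N-FI, 2.96 ± 0.0944 in LAN5 and 2.42 ± 0.103 in IMR5, H1-2 of -1.12 ± 0.154 in SK-N-FI, 2.14 ± 0.144 in LAN5 and 2.74 ± 0.22 in IMR5 and RAB3B of -1.40 ± 0.152 in SK-N-FI, 1.52 ± 0.152 in LAN5 and 1.03 ± 0.0764 in IMR5. H1-2, MCHR1, PURPL, TRIM66, CYRIA, RAB3B and NGFR were negative in SK-N-FI and positive in both other lines.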

How the results depend on the processing

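No paired analysis was possible because the deposited tables hold no values of single libraries, and for the same reason leaving out single libraries and other normalizations or count models were not run. Beside the 7136 genes called, 3528 were called when testing was limited to a mean of at least 500 (1898 higher, 1630 lower). Of the 7136, 1769 had an absolute log2 fold change of at least 1 (1111 higher, 658 lower). Higher genes made up 53% of the calls as reported, 62.8% with that fold, and 49.5% to 54.5% in the other settings. Where the mean reached 500 in each of the 3 tables, 2708 genes differed from LAN5 (1706 above, 1002 below) and 2504 from IMR5 (1535 above, 969 below), with 836 above both and 425 below both; fewer genes were tested there. In the other settings every count over all genes stayed within 1.5 times the one reported. They were an adjusted p under 0.01, no filter on low means, a mean of at least 50, centring, and the deposited in place of the prior-removed values. Also among them, chosen after seeing the data, were rescaling to the total of normalized counts and centring on genes with a mean of at least 500. No named gene changed its sign where it was called, but the settings could hardly have changed one. They left the fold change of SK-N-FI as it was, scaled it by a positive factor or shifted it by no more than 0.0251. The balance of counts did turn: calls were 3546 higher and 3613 lower when centred on genes with a mean of 500 or more, and genes above and below both lines went from 1357 and 865 to 1028 and 1090 (each line centred) and 946 and 1147 (rescaled). The 24 named differences from both lines kept their side in each setting that could test them. With a mean of at least 500 only 4 could be tested. All 24 were picked for their size, at least 1.86, so a change of side was hardly possible. Of 98 counts of list members higher or lower, 14 moved by over 1.5 times at an adjusted p under 0.01, 5 with a mean of at least 50, 1 after rescaling and none after centring on genes with a mean of at least 100. Counts of list members above both or below both lines moved more often. With the deposited values 1 moved and 93 did not, with each line centred 11 and 83, and after rescaling 13 and 81. Without depth per library, no limit of detection can be given.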

Other observations

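Some families chosen after their values were seen moved in 1 direction in SK-N-FI. Of 17 genes of the circadian clock 14 were higher and none lower (median 1.52). BHLHE40 and BHLHE41, repressors in the clock loop that are also hypoxia genes, had 4.16 ± 0.17 and 4.09 ± 0.253, PER2 2.27 ± 0.208 and NR1D1 1.80 ± 0.17, while CLOCK (-0.24 ± 0.118) and BMAL1 (0.41 ± 0.182) were not called, in the authors' deposited table. Of 12 compared with LAN5 and IMR5, PER2, NFIL3, PER1, NR1D2 and CRY1 lay above both. Of 12 tested genes of the NF-kB pathway 8 were higher and 1 lower, with RELB at 2.08 ± 0.211 and the inhibitor NFKBIA at 1.54 ± 0.168 in the authors' deposited table. Copies of TBC1D3, a primate-specific family on chromosome 17, had values from 1.12 (TBC1D3B) to 2.14 (TBC1D3) in the authors' deposited table; they are near-identical, so how their reads were divided is uncertain.

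Of 51 clustered protocadherins, adhesion proteins that give neurons their identity, 26 were lower and none higher (median -0.71), led by PCDHB5 at -1.91 ± 0.153 in the authors' deposited table. These genes share exons or closely similar sequence, so their reads are not fully separate. Of 10 tested nicotinic acetylcholine receptor subunits 6 were lower and 1 higher. The neighbouring genes CHRNA3 (mean 18881 normalized counts), CHRNA5 (-1.24 ± 0.0906) and CHRNB4 (-0.93 ± 0.126) were lower in the authors' deposited table and lay below both other lines. Of 13 lamin and HMG genes 5 were lower and 1 higher, with LMNB1 at -1.88 ± 0.106 and HMGB3 at -1.77 ± 0.109 in the authors' deposited table. Of 5 tested mitochondrial tRNAs 2 were lower, MT-TP at -1.64 ± 0.212 and MT-TY at -1.07 ± 0.211 in the authors' deposited table. Mitochondrial ribosomal proteins were divided, with 14 higher and 17 lower of 78.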
